A study of Homo sapiens with 6 samples.

Results

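The lysosomal enzymes and membrane proteins described here are 34 genes chosen by name: 20 hydrolases, 8 membrane or cofactor proteins, 4 proteins of the proton pump and the transcription factors TFEB and TFE3. All 34 were found by symbol among the 57905 gene identifiers of the series, and 33 were abundant enough to be tested, among 14578 tested genes in all. The cathepsin CTSZ did not reach the count filter, with 0.0329 to 0.196 FPKM. The cells were U87, an established human glioma line, and their total RNA was sequenced in 6 libraries. In 3 of them, named siRBM47 by treatment and genotype, the cells had been transfected, by lipofection with a Lipofectamine reagent, with 100 pmol of an siRNA against RBM47, an RNA-binding protein. The other 3 are controls with the genotype WT and the treatment no. The labels do not say whether control cells received a non-targeting RNA or the transfection reagent, so transfection and the siRNA cannot be told apart. Whether replicates came from separate cultures is not stated, and the p-values reflect no more than library-to-library spread, possibly technical. The series was set up to compare gene expression between these groups, with RBM47 depletion as the intended treatment. The level of RBM47 itself, given further on, does not show a depletion.

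Lysosomes are acidic organelles in which hydrolases break down proteins, lipids, glycans and glycogen delivered by endocytosis and autophagy. A proton pump, the V-ATPase, keeps the lumen acid, and heavily glycosylated membrane proteins line the organelle and carry lipids and ions across its membrane. The transcription factors TFEB and TFE3 bind E-box sequences upstream of many of these genes and raise their transcription when nutrients are short. Cathepsins B, D and L are much studied in glioma, where they also act outside the cell on the matrix.

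The promoter windows of 5 of the genes are given because they show the E-box sequence CACGTG that TFEB and TFE3 can bind, and because NPC1 and CTSL, which lack it in this window, had the smallest p-values of the 34. The sequences are from RefSeq on GRCh38.p14 and run 5′ to 3′ from 250 bases before to 50 bases after the annotated start, on the strand of the gene. Capitals mark each CACGTG. GAA was taken by a rule on its p-value and its E-box, and the other 4 windows were chosen after their values were seen. They lie at chr17:80101331-80101630, plus strand for GAA, chr19:7522374-7522673, plus strand for MCOLN1, chr13:113296989-113297288, plus strand for LAMP1, chr18:23586457-23586756, minus strand for NPC1 and chr9:87725869-87726168, plus strand for CTSL.
GAA: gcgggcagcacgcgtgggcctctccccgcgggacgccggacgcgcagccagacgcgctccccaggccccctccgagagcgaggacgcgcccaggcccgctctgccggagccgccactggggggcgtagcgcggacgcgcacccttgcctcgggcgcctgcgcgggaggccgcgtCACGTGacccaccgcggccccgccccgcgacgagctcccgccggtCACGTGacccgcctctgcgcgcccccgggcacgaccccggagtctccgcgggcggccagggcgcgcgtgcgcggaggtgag
MCOLN1: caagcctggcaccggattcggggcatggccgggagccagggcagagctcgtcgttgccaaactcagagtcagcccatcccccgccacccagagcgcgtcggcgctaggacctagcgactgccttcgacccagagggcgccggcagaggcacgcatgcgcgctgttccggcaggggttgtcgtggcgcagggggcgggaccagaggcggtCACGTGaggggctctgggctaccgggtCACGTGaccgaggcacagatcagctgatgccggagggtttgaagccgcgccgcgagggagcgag
LAMP1: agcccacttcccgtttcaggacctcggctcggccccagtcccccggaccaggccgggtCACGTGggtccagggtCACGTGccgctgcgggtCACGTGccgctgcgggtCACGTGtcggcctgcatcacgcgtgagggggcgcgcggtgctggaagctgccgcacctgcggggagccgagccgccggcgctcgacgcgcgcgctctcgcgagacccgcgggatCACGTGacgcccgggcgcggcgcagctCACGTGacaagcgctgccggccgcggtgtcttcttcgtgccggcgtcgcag
NPC1: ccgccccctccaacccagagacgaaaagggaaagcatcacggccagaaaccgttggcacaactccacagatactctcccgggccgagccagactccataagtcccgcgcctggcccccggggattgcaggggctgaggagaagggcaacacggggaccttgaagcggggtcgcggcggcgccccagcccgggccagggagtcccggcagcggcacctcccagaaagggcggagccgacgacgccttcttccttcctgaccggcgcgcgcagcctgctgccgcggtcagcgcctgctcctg
CTSL: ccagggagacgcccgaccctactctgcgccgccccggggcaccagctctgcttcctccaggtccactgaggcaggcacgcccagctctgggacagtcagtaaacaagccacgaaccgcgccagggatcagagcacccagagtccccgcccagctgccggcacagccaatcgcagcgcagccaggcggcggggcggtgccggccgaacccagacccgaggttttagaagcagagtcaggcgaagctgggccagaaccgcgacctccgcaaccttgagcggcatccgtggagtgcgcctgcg

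The window of GAA, the acid glucosidase that degrades glycogen, held 2 E-boxes, with first bases at positions -76 and -31 from the start. MCOLN1 encodes a calcium channel of the lysosomal membrane, and its window held 2 E-boxes, at -41 and -14. The window of LAMP1, an abundant structural protein of that membrane, held 6, the nearest of which spans the start. A search for CACGTG, which reads the same on both strands, found it in 9 of the 37 windows that RefSeq gave for 24 of the genes. That is 24.3% of those windows, against 7.26% of all 35116 windows of the same length. The longer form TCACGTG, searched on both strands and overlapping the first, was in 21.6% of the windows of the genes and 3.71% of all windows. The other genes with a CACGTG were CTSD, CTSA, CD63, ATP6V0D1, NEU1 and ARSB. CD63, the gene with the most windows, and ARSB each had more than 1 window, of which only 1 held it, at -180 and -160. The match of CD63 was not of the longer form. A match is a stretch of letters and not a measured binding site, and its absence says only that these letters are not in this window.

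The libraries held 15575297 to 18128549 counts. RBM47 itself was not detectably lower. It had 3.54, 2.74 and 2.23 CPM (counts per 1e6 counts of the library, scaled with TMM factors) in siRBM47 replicates 1, 2 and 3, against 1.62, 1.73 and 5.75 CPM in the controls (log2 fold change -0.11, SE 0.50, edgeR adjusted p = 0.942). Without control replicate 3 its log2 fold change was 0.76, higher in siRBM47, with an edgeR adjusted p of 0.152. Directions are therefore given between libraries as labelled. Control replicate 3 stood apart, since its log2 CPM correlated across genes at 0.941 with control replicate 1 and 0.95 with control replicate 2, which correlated at 0.988 with each other. Values without it are given beside the genes and counts it moves. The line's label was set against marker genes. Of the glial and glioma-line markers, VIM and CD44 were high in every library, GFAP was at most 1.49 CPM and AQP4 had no count. S100B, at most 0.387 CPM, and SOX2 were low. SOX9 was higher in every siRBM47 library than in every control, at a log2 fold change of 0.92 (SE 0.22). Its adjusted p was 0.106 by edgeR and 0.0113 by DESeq2. OLIG2 was lower in every siRBM47 library than in every control, at -0.83 (SE 0.27). Its adjusted p was 0.19 by edgeR and 0.101 by DESeq2. The groups overlapped for the other tested glial markers. Of 11 markers of microglia and macrophages, cells rich in lysosomes, 6 had no count in any library, among them ITGAM, AIF1 and TYROBP. The summed level of the 11 was 43.0 to 59.0 CPM in siRBM47 and 16.0 to 67.3 CPM in control, nearly all of it from CSF1R and TMEM119. The summed levels of the 4 matched endothelial markers were 6.81 to 8.84 CPM in siRBM47 and 11.4 to 15.1 CPM in control. Most of this sum was KDR, with means of 5.85 CPM in siRBM47 and 12.2 CPM in control. The means of VWF went the other way, at 1.82 and 1.18 CPM. Those of 5 neuronal markers summed to 23.1 to 35.3 CPM in siRBM47 and 17.5 to 21.5 CPM in control. Most of that sum was SNAP25, with means of 21.5 CPM in siRBM47 and 13.8 CPM in control. The means of RBFOX3 went the other way, at 0.0571 and 0.26 CPM. The 5 epithelial markers summed to 23.1 to 28.3 CPM in siRBM47 and 19.0 to 39.4 CPM in control. The part of these marker levels in the differences reported was not tested.

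None of the 33 tested genes passed an adjusted p of 0.05 over all genes by edgeR, where 0.22% of all tested genes did, 0.0823% as higher and 0.137% as lower in siRBM47. By limma-voom 0 of them passed, against 0.233% of all tested genes. By DESeq2 2 were lower, the cholesterol exporter NPC1 and the protease CTSL, against 4.42% of all tested genes in either direction and 2.63% lower. At an unadjusted p under 0.05 by edgeR, 5 genes were lower (NPC1, CTSL, TPP1, GAA and ARSA) and 1 was higher (PPT1). These are 15.2% and 3.03% of the 33, beside 8.94% lower and 7.15% higher among all tested genes. The log2 fold change was negative for 24 of 33 genes (72.7%, against 51.2% of all tested genes), with a median of -0.17 beside -0.01 over all tested genes. By role, 13 of 19 hydrolases were negative with a median of -0.18, and 6 of 8 membrane and cofactor proteins with a median of -0.21. In a bulk library, a change in the level per cell and a change in the share of cells that express a gene cannot be told apart.

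Every siRBM47 library lay below every control library for 9 of the 33 genes, or 27.3% beside 11.0% of all tested genes. These were CTSB, CTSL, TPP1, GAA, HEXA, ARSA, NPC1, ATP6V1H and TFEB. The reverse held for PPT1 alone, 3.03% of the 33 beside 11.6% of all tested genes. Summed over the 34 genes, the level was 5579, 6741 and 6203 CPM in siRBM47 replicates 1, 2 and 3, against 6707, 6780 and 7965 CPM in control replicates 1, 2 and 3. The groups overlapped in this sum, since siRBM47 replicate 2 was above control replicate 1.

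**Figure D1:**
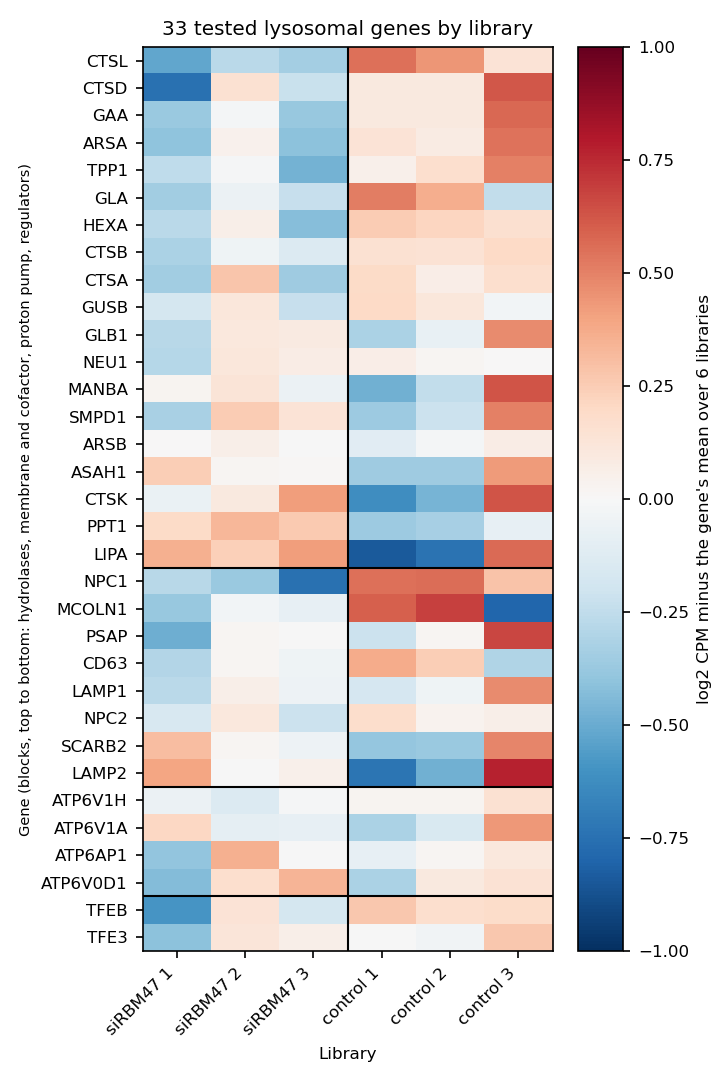
Heat map of the 33 tested lysosomal genes (rows, in blocks by role) in the 3 siRBM47 and 3 control libraries (columns), coloured by log2 CPM minus the gene's mean over the 6 libraries. NPC1 and CTSL are lower in the 3 siRBM47 columns, and for LIPA and LAMP2 control replicate 3 differs from the other 2 controls.

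On the FPKM scale (fragments per kilobase, scaled to library depth, as the authors computed them), which allows levels of different genes to be compared, CD63 was the highest of the 34, with a mean of 345 FPKM over the 6 libraries and a range of 274 to 438 FPKM. CD63 is a tetraspanin of late endosomes and lysosomes. Next were PSAP, the precursor of the saposins that help hydrolases reach sphingolipids, at 138 to 304 FPKM, and the cysteine protease CTSB at 142 to 199 FPKM. The ranges of CD63 and PSAP overlapped, as did those of PSAP and CTSB. CTSK, a collagen-degrading cathepsin best known from bone, followed by its mean at 58 to 136 FPKM, and then LAMP1 at 69.9 to 115 FPKM. The range of CTSB lay above both of these, which overlapped each other. At the low end were HEXA, the alpha subunit of hexosaminidase, at 2.61 to 4.15 FPKM, TFEB at 0.801 to 1.44 FPKM and CTSZ. The transcription factor TFE3, at 22.5 to 35.4 FPKM, was above its relative TFEB in every library.

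**Figure D2:**
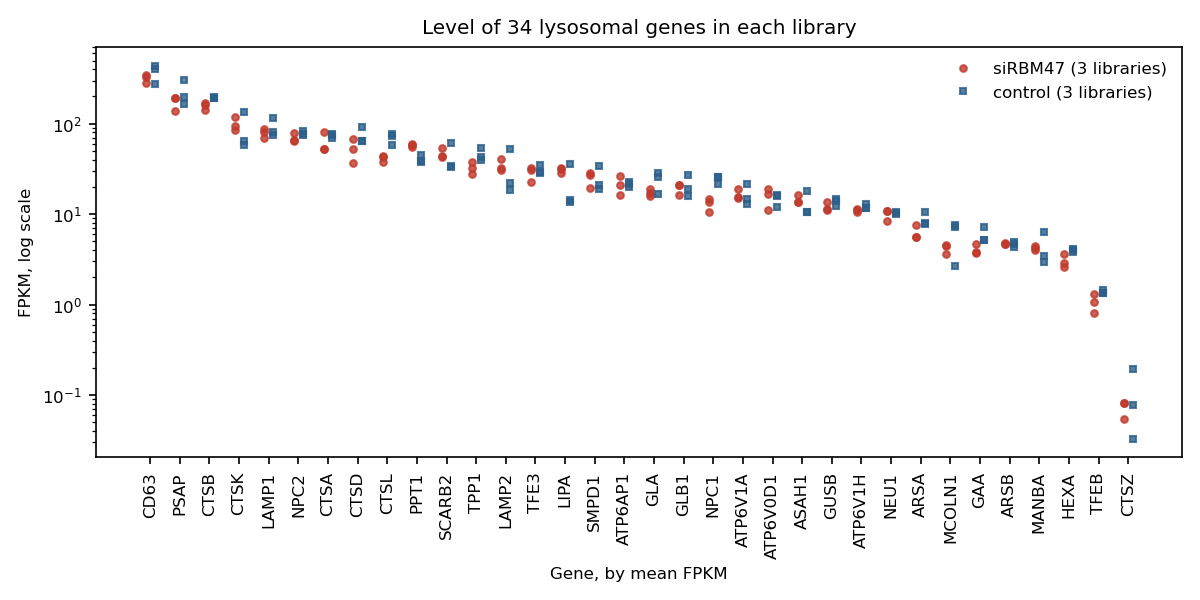
FPKM on a log axis of the 34 lysosomal genes in each library, ordered by mean FPKM, with siRBM47 libraries as circles and control libraries as squares. CD63 leads with a mean of 345 FPKM and CTSZ is last with a mean of 0.0875 FPKM.

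Among the proteases, CTSL had the clearest difference. CTSL (ENSG00000135047, chr9:87725519-87731393, plus strand, GRCh38 by GENCODE release 29, protein-coding) encodes an endopeptidase that cuts proteins in the lysosome. It had 88.6, 105 and 100.5 CPM in siRBM47 replicates 1, 2 and 3, against 186, 173 and 139 CPM in control replicates 1, 2 and 3. The groups did not overlap, and control replicate 3 was the lowest control. Its log2 fold change was -0.76 (SE 0.19, 95% interval -1.17 to -0.34), a ratio of 0.591, with an adjusted p of 0.112 by edgeR and 0.0147 by DESeq2. The 4 annotated pseudogenes named CTSLP with a number had at most 2 counts each over the 6 libraries. Pseudogenes under other names were not looked for.

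CTSB, which also acts as a carboxydipeptidase, had 1056, 1275 and 1195 CPM in siRBM47, against 1461, 1449 and 1509.6 CPM in control. All siRBM47 values were below all control values, at a log2 fold change of -0.33 (SE 0.17, edgeR adjusted p = 0.39). CTSK had 162, 182 and 227 CPM in siRBM47, against 110.4, 123 and 262 CPM in control, a log2 fold change of 0.20 (SE 0.32, edgeR adjusted p = 0.795). Its control replicate 3 was 2.24 times the mean of the other 2 controls and above every siRBM47 library, which in turn were above control replicates 1 and 2. TPP1 removes tripeptides from the ends of proteins and is the gene of a childhood neuronal ceroid lipofuscinosis. It had 158, 187 and 136 CPM in siRBM47, against 195, 211 and 267 CPM in control, with no overlap of the groups and a log2 fold change of -0.49 (SE 0.20, edgeR adjusted p = 0.277).

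The aspartic protease CTSD differed by a log2 fold change of -0.52 (SE 0.26), and siRBM47 replicate 2 was above control replicates 1 and 2. Its counts are uncertain, since another annotated gene covers 41.7% of its exons on the same strand and 15.8% are covered from the opposite strand. The labels name a kit that leaves strand unmarked. CTSA, the protective protein of neuraminidase and galactosidase, differed by -0.25 (SE 0.21), with groups that overlapped, and genes of the other strand cover 28.5% of its exons. For TPP1 11.6% of the exon length is shared on the same strand.

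PPT1 was the only one of the 33 genes that lay higher in every siRBM47 library than in every control library. It encodes a thioesterase that removes fatty acids from proteins and is the gene of an infantile neuronal ceroid lipofuscinosis. It had 183, 202 and 193 CPM in siRBM47 replicates 1, 2 and 3, against 125, 128 and 152 CPM in control replicates 1, 2 and 3. It differed by 0.52 on the log2 scale (SE 0.17, 95% interval 0.13 to 0.90), at an edgeR adjusted p of 0.195 and a DESeq2 adjusted p of 0.0983. Its counts are uncertain, since CAP1 covers 23.4% of its exons from the opposite strand.

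LIPA is the acid lipase that releases cholesterol and fatty acids from lipoproteins. It had 154, 143 and 162 CPM in siRBM47 replicates 1, 2 and 3, against 67.6, 72.4 and 179.5 CPM in control replicates 1, 2 and 3. The siRBM47 libraries lay close together, above control replicates 1 and 2 and below control replicate 3, which was 2.56 times the mean of these. With all libraries the log2 fold change was 0.52 (SE 0.35, edgeR adjusted p = 0.494). Of the sphingolipid enzymes, SMPD1 (acid sphingomyelinase) and ASAH1 (acid ceramidase) differed by 0.01 (SE 0.26) and 0.14 (SE 0.24) on the log2 scale. Their groups overlapped. GLA, the alpha-galactosidase lost in Fabry disease, had 32.9, 40.2 and 35.8 CPM in siRBM47, against 59.7, 54 and 35.4 CPM in control. Here control replicate 3 was among the siRBM47 values and the other 2 controls were above them, and the log2 fold change was -0.45 (SE 0.23, edgeR adjusted p = 0.367).

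Of the glycosidases and sulfatases, GAA, ARSA and HEXA were lower in each siRBM47 library than in each control. GAA had 19.5, 24.8 and 19.4 CPM in siRBM47, against 26.9, 27 and 37.5 CPM in control, a log2 fold change of -0.52 (SE 0.22, edgeR adjusted p = 0.277). ARSA, the sulfatase lost in metachromatic leukodystrophy, had 16.5, 22.5 and 16.4 CPM in siRBM47, against 23.9, 23.1 and 31.8 CPM in control, a log2 fold change of -0.51 (SE 0.23, edgeR adjusted p = 0.306). HEXA, lost in Tay-Sachs disease, had 28.2, 35.5 and 25.4 CPM in siRBM47, against 40.7, 39.6 and 38 CPM in control, a log2 fold change of -0.41 (SE 0.19, edgeR adjusted p = 0.337). In each of these 3 genes siRBM47 replicate 2 was the highest siRBM47 library and close to the lowest control. Of the exons of HEXA, 13.0% are covered by genes of the other strand. The groups overlapped for the other 5, with log2 fold changes of -0.08 (SE 0.24) for the beta-galactosidase GLB1, -0.18 (SE 0.18) for the beta-glucuronidase GUSB and -0.05 (SE 0.18) for the sialidase NEU1. They were 0.03 (SE 0.17) for the sulfatase ARSB and -0.02 (SE 0.28) for the beta-mannosidase MANBA. GUSB counts are uncertain because of its pseudogenes, of which GUSBP1 had 647 counts over the 6 libraries.

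Among membrane and cofactor proteins NPC1 had the smallest adjusted p of the 34 genes. NPC1 (ENSG00000141458, chr18:23506184-23586898, minus strand, protein-coding) moves cholesterol out of the lysosome after NPC2, a soluble protein of the lumen, hands it over. NPC1 had 149, 139.6 and 107 CPM in siRBM47 replicates 1, 2 and 3, against 264, 265 and 219.7 CPM in control replicates 1, 2 and 3. The groups were apart, with the highest siRBM47 value at 149 CPM and the lowest control value at 219.7 CPM. NPC1 differed by -0.92 on the log2 scale (SE 0.19, 95% interval -1.36 to -0.49), a ratio of 0.528, with an adjusted p of 0.0838 by edgeR and 0.00239 by DESeq2. An antisense neighbour, RMC1, overlaps 6.0% of its exon length. NPC2 had 184, 221 and 177 CPM in siRBM47, against 233, 210.2 and 214 CPM in control, groups that overlapped, and a log2 fold change of -0.17 (SE 0.17, edgeR adjusted p = 0.666).

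The structural membrane proteins did not share one pattern. LAMP1 had 402, 506 and 467 CPM in siRBM47, against 431, 471 and 674 CPM in control, and LAMP2, which also takes part in chaperone-mediated autophagy, had 231, 175 and 181 CPM in siRBM47, against 106, 126 and 298 CPM in control. For both, control replicate 3 was the highest of the 6 libraries, and for LAMP2 it was 2.58 times the mean of the other 2 controls. SCARB2, the receptor that carries glucocerebrosidase to lysosomes, had 309.7, 254 and 242 CPM in siRBM47, against 191, 193 and 350.3 CPM in control, with the same order of groups as LAMP2. With all libraries the log2 fold changes were -0.20 (SE 0.22) for LAMP1, 0.15 (SE 0.36) for LAMP2 and 0.13 (SE 0.26) for SCARB2.

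CD63 had 735, 912 and 875 CPM in siRBM47, against 1163, 1068 and 733 CPM in control. Control replicate 3 was the lowest of the 6, just under siRBM47 replicate 1, and the log2 fold change was -0.23 (SE 0.22, edgeR adjusted p = 0.637). PSAP had 446, 635 and 624 CPM in siRBM47, against 541, 634 and 998 CPM in control, with control replicate 3 highest and siRBM47 replicate 1 lowest, and a log2 fold change of -0.35 (SE 0.26, edgeR adjusted p = 0.542). MCOLN1 had 14.4, 18.4 and 17.7 CPM in siRBM47, against 28.4, 30 and 10.8 CPM in control. Control replicates 1 and 2 were above all siRBM47 libraries and control replicate 3 was below them all, at 0.37 times the mean of the other 2 controls. The log2 fold change of MCOLN1 was -0.45 (SE 0.35, edgeR adjusted p = 0.559).

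**Figure D3:**
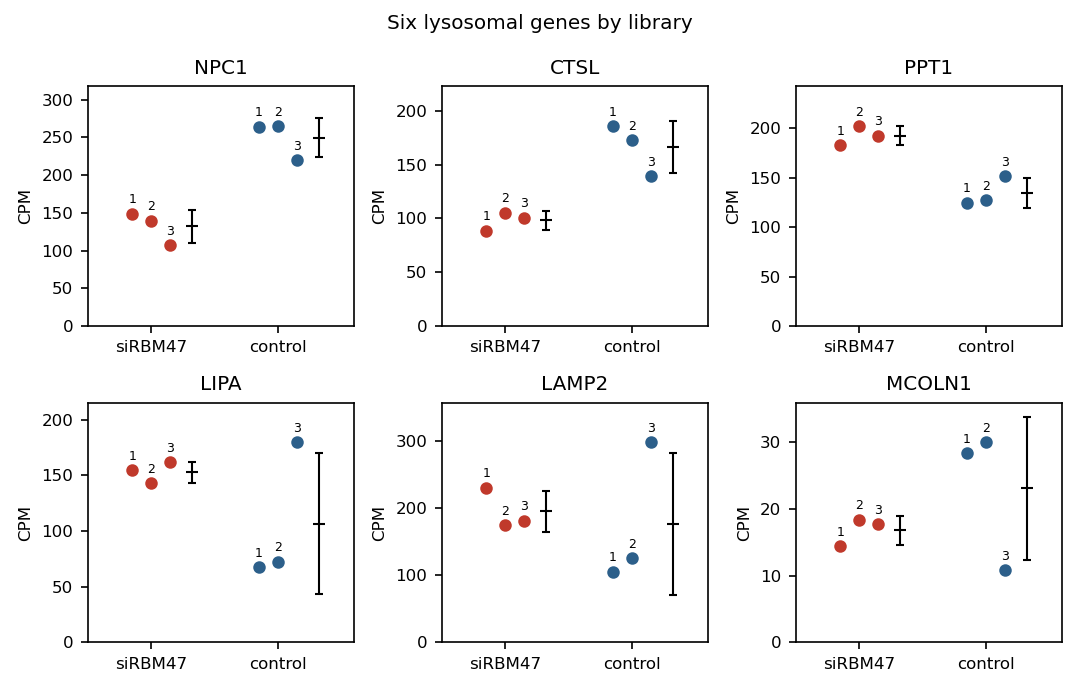
CPM by library of NPC1, CTSL, PPT1, LIPA, LAMP2 and MCOLN1, with siRBM47 left of control in each panel, replicate numbers above the points and the mean ± SD (n = 3) beside them. The groups are apart for NPC1, CTSL and PPT1, and control replicate 3 lies on the far side of the siRBM47 libraries for LIPA, LAMP2 and MCOLN1.

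The 4 proton pump genes had log2 fold changes between -0.14 and 0.07. ATP6V1H, a regulatory subunit of the cytosolic sector, had 56.9, 54.1 and 58.8 CPM in siRBM47, against 60.5, 60.7 and 66.2 CPM in control, with a narrow gap between the groups and a log2 fold change of -0.14 (SE 0.17, 95% interval -0.52 to 0.23). The catalytic subunit ATP6V1A had a log2 fold change of -0.01 (95% interval -0.52 to 0.51), the membrane-sector subunit ATP6V0D1 of 0.07 (-0.46 to 0.60) and the accessory protein ATP6AP1 of 0.00 (-0.48 to 0.48). The edgeR adjusted p of the 4 ran from 0.719 to 0.999, which does not show that they were alike in both groups. Of the regulators, TFEB had 4.53, 7.49 and 6.03 CPM in siRBM47, against 8.19, 7.65 and 7.72 CPM in control. The groups did not overlap, but the gap was narrow, with 131 counts in siRBM47 replicate 2 and 133 in control replicate 2. The log2 fold change of TFEB was -0.38 (SE 0.26, 95% interval -0.97 to 0.20, edgeR adjusted p = 0.506). TFE3 had 96.2, 139 and 133 CPM in siRBM47, against 127, 125 and 154 CPM in control, with groups that overlapped and a log2 fold change of -0.14 (SE 0.20, edgeR adjusted p = 0.769).

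Control replicate 3 was above both other controls for 22 of the 33 genes (66.7%, against 44.9% of all tested genes) and below both for 8 (24.2%, against 43.8%). The median of its difference from the mean of the other 2, in log2 CPM, was 0.27 over the 33 genes and 0.01 over all tested genes. The summed markers of microglia and macrophages were highest in this library too, mostly through TMEM119, at 42.0 CPM against 4.06 and 3.51 CPM in control replicates 1 and 2. CSF1R, at 24.9 CPM, was below siRBM47 replicates 2 and 3 (27.4 and 31.6 CPM). The defining markers ITGAM, AIF1 and TYROBP had no count there. This was not particular to these markers. The glial CHI3L1 (88.8 against 21.4 and 19.7 CPM), the epithelial KRT8 (36.8 against 22.0 and 17.3 CPM) and the endothelial VWF (2.98 against 0.203 and 0.345 CPM) were also higher there. VIM, the endothelial KDR and the epithelial KRT18 (0.266 against 3.05 and 0.691 CPM) were lower there than in the other controls. The epithelial CDH1 and KRT19 lay between the other 2 controls, and EPCAM was at 1.01 against 0.88 and 0.345 CPM. The part of these markers in the difference was not tested.

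Without control replicate 3, 9 of the 33 genes passed the edgeR threshold, or 27.3% beside 21.4% of all tested genes. The lower ones were NPC1 (log2 fold change -1.01, SE 0.16, adjusted p = 0.000912), CTSL (-0.87, SE 0.15, adjusted p = 0.00131), MCOLN1 (-0.80, SE 0.19) and GLA (-0.65, SE 0.17). The higher ones were LIPA (1.13, SE 0.15, adjusted p = 0.000278), LAMP2 (0.76, SE 0.17), CTSK (0.70, SE 0.17), PPT1 (0.61, SE 0.14) and SCARB2 (0.48, SE 0.15). These 5 higher genes are 15.2% of the 33, beside 10.1% of all tested genes, and the 4 lower ones are 12.1%, beside 11.3%. Of the genes that did not pass, some moved toward 0 without control replicate 3. PSAP was then at -0.05, CTSD at -0.32, TPP1 at -0.34, and GAA and ARSA at -0.35 each. The unadjusted edgeR p-values of GAA and ARSA were then 0.0851 and 0.102. Others moved away from 0, such as ASAH1 to 0.45 (edgeR adjusted p = 0.0574) and CD63 to -0.41 (edgeR adjusted p = 0.0561). The median log2 fold change was then -0.07, with 19 of 33 genes negative (57.6%, against 48.4% of all tested genes). By role the median was -0.24 for the hydrolases, of which 11 of 19 were negative, and -0.12 for the membrane and cofactor proteins, of which 5 of 8 were. In the same fit 5 of the 22 tested markers of cell types passed, a share close to the 21.4% of all tested genes. The glial OLIG2 did not pass (-0.70, edgeR adjusted p = 0.0759). TMEM119 (log2 fold change 2.73, adjusted p = 1.27e-05), CSF1R (1.11, adjusted p = 0.00242), the endothelial VWF (2.68, adjusted p = 0.00591) and the glial SOX9 (1.02, adjusted p = 0.00428) were higher in siRBM47, and the endothelial KDR was lower (-1.28, adjusted p = 0.00134). Their part in the 9 calls was not tested. These calls rest on control replicates 1 and 2, the most alike pair of libraries within a group.

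Leaving out any other single library gave 0 calls among the 33 genes by edgeR. Over all tested genes 0.13% passed with control replicate 1 left out, 0.0823% with control replicate 2 left out and 0.0% with any siRBM47 replicate left out. At an unadjusted p under 0.05, 8 genes were lower and 1 higher without siRBM47 replicate 2, which is 24.2% and 3.03% of the 33 beside 7.18% and 5.28% of all tested genes. Without siRBM47 replicate 1 there were 2 lower and 1 higher, beside 6.64% and 5.63% of all tested genes, and without siRBM47 replicate 3 again 2 lower and 1 higher, beside 5.5% and 4.41%. For control replicate 1 left out, 4 were lower and 0 higher, beside 6.35% and 5.08%, and for control replicate 2 left out 2 were lower and 0 higher, beside 5.57% and 4.1%.

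**Figure D4:**
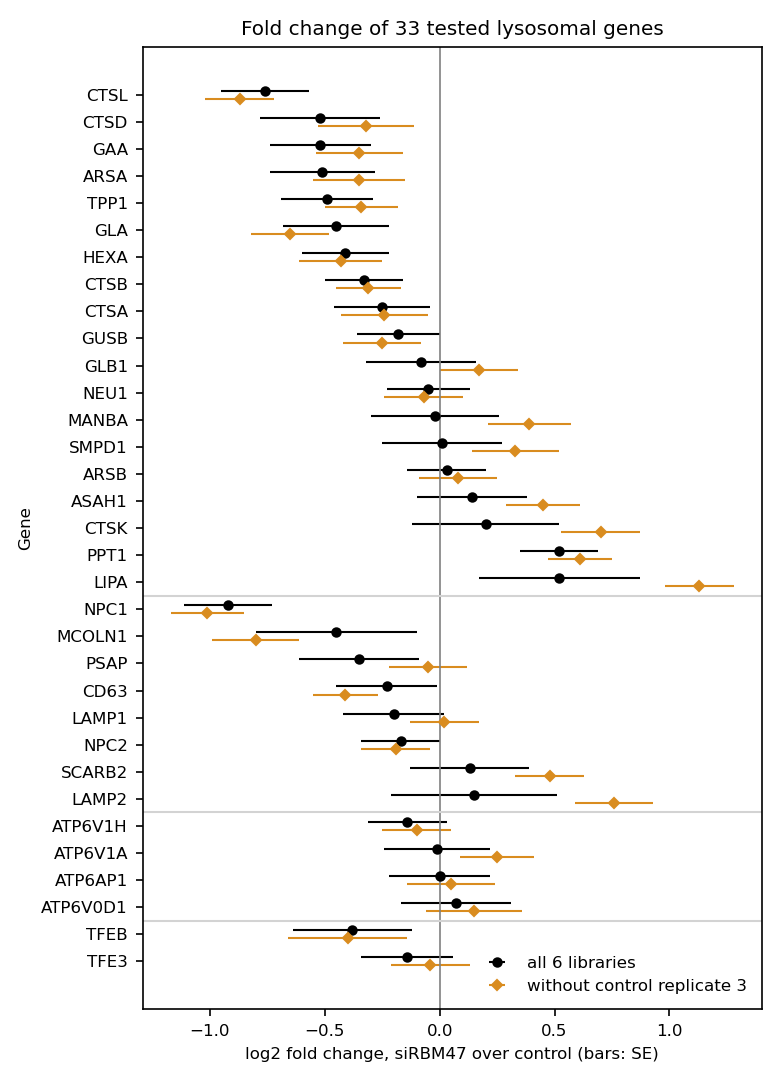
Log2 fold change of siRBM47 over control with its SE for the 33 tested lysosomal genes, with all 6 libraries (black circles) and without control replicate 3 (orange diamonds), in blocks by role. NPC1 is at -0.92 with all libraries and -1.01 without control replicate 3, and CTSL at -0.76 and -0.87, while LIPA is at 0.52 and 1.13 and LAMP2 at 0.15 and 0.76.

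A further 138 names of lysosome-pathway genes in 6 lists gave 136 matched genes, of which 130 were tested. By edgeR 0 of them passed over all genes, with 9 higher and 8 lower at an unadjusted p under 0.05. These are 6.92% and 6.15% of the 130, beside 7.15% and 8.94% of all tested genes. By DESeq2 3 were higher and 2 lower, beside 1.79% and 2.63% of all tested genes, and by limma-voom 0 passed. Of the 130, 71 were negative (54.6%, against 51.2% of all tested genes), with a median log2 fold change of -0.02. Without control replicate 3, 19 were called higher and 10 lower by edgeR, 22.3% beside 21.4% of all tested genes. By direction these are 14.6% higher beside 10.1% of all tested genes and 7.69% lower beside 11.3%. The genes named below were picked for small p-values with all libraries. Their passing without control replicate 3, in a fit that shares most of those libraries, is therefore not separate evidence.

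Among the other 14 proton pump genes, TCIRG1, a subunit of the membrane sector known from osteoclasts, had 88.6, 110.4 and 82.1 CPM in siRBM47, against 170.1, 172 and 185 CPM in control. It was lower in every siRBM47 library, at a log2 fold change of -0.91 (SE 0.18) and an adjusted p of 0.0741 by edgeR and 0.00114 by DESeq2. It was at -0.87 (edgeR adjusted p = 0.00217) without control replicate 3. ATP6V0E1 was at 331 ± 4.25 CPM in siRBM47 and 222 ± 16.6 CPM in control (SD, n = 3 each) and ATP6V0E2 at 33.6 ± 5.57 CPM in siRBM47 and 50.8 ± 5.54 CPM in control. These 2 related subunits of the membrane sector had log2 fold changes of opposite sign, 0.57 (SE 0.17) and -0.60 (SE 0.20), with an edgeR adjusted p of 0.146 and 0.196 and a DESeq2 adjusted p of 0.0391 and 0.12. Both passed by edgeR without control replicate 3, at 0.51 (adjusted p = 0.0166) and -0.67 (adjusted p = 0.0185). ATP6V0C was at 0.889 ± 1.01 CPM in siRBM47 and 2.58 ± 1.16 CPM in control, but 72.1% of its exon length is shared on the same strand with other annotated genes, so its counts are uncertain.

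Of 30 tested hydrolases and activators outside the 34, 19 were negative (63.3%, against 51.2% of all tested genes), with a median log2 fold change of -0.08. Without control replicate 3 the tally turned round, with 11 negative (36.7%, against 48.4% of all tested genes) and a median of 0.09. SGSH and HGSNAT act in the breakdown of heparan sulfate. SGSH was at 5.78 ± 2.29 CPM in siRBM47 and 13.5 ± 1.55 CPM in control (SD, n = 3 each), a log2 fold change of -1.22 (SE 0.31, adjusted p = 0.117 by edgeR and 0.0119 by DESeq2). HGSNAT was at 71 ± 4.14 CPM in siRBM47 and 45.8 ± 6 CPM in control, a log2 fold change of 0.63 (SE 0.18, adjusted p = 0.146 by edgeR and 0.0447 by DESeq2). The alpha-mannosidase MAN2B1 and the dipeptidyl peptidase CTSC differed by -0.64 (SE 0.23) and -0.45 (SE 0.18). Of these 4, SGSH (-1.31, adjusted p = 0.00628), HGSNAT (0.74, adjusted p = 0.00544) and CTSC (-0.50, adjusted p = 0.0402) passed by edgeR without control replicate 3. Of 24 other membrane proteins and transporters, those with small p-values included PIP4P1 at -0.61 (SE 0.26) and the amino acid transporters SLC38A9 at 0.50 (SE 0.23) and SLC36A1 at 0.41 (SE 0.21). Their edgeR adjusted p ran from 0.279 to 0.372. PIP4P1 passed without control replicate 3, at -0.77 (edgeR adjusted p = 0.0217), and both transporters did not.

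Of 17 genes that deliver enzymes to lysosomes, the mannose 6-phosphate receptor IGF2R was at 83.5 ± 11.5 CPM in siRBM47 and 115 ± 2.06 CPM in control (SD, n = 3 each), a log2 fold change of -0.46 (SE 0.18, edgeR adjusted p = 0.247). SUMF1, which activates sulfatases, differed by 0.33 (SE 0.20), and the sorting adaptors GGA1 and GGA3 by -0.34 (SE 0.24) and -0.30 (SE 0.22). Of these 4, SUMF1 alone passed without control replicate 3, at 0.50 (edgeR adjusted p = 0.0362). Of 23 genes of nutrient sensing and TFEB control, the smallest p-values were those of RRAGB at 0.62 (SE 0.26), RPTOR at -0.63 (SE 0.29), PPP3CB at 0.37 (SE 0.18) and LAMTOR3 at 0.41 (SE 0.24). RRAGB and LAMTOR3 belong to the machinery that holds mTORC1 at the lysosome, RPTOR is a subunit of mTORC1, and PPP3CB is a catalytic subunit of calcineurin, which dephosphorylates TFEB. Without control replicate 3 RRAGB (0.80, edgeR adjusted p = 0.0291) and RPTOR (-0.89, edgeR adjusted p = 0.00711) passed. In the list of 22 positioning and repair genes, BLOC1S2 was at 62.5 ± 10.1 CPM in siRBM47 and 36 ± 2.27 CPM in control, a log2 fold change of 0.79 (SE 0.19, adjusted p = 0.106 by edgeR and 0.012 by DESeq2). BORCS7, a partner in the complex that moves lysosomes outward, differed by 0.93 (SE 0.32), LGALS3, a lectin that marks damaged lysosomes, by 0.58 (SE 0.20) and the tethering subunit VPS16 by -0.63 (SE 0.21), with an edgeR adjusted p of 0.197 to 0.203. All 4 passed by edgeR without control replicate 3, BLOC1S2 at 0.81 (adjusted p = 0.00718), BORCS7 at 1.25 (adjusted p = 0.00591), LGALS3 at 0.74 (adjusted p = 0.00345) and VPS16 at -0.68 (adjusted p = 0.0262). In that fit 21.4% of all tested genes passed, and these 4 had been picked for their small p-values with all libraries.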

How the data were processed

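Total RNA of U87 cells was measured in 6 libraries, 3 siRBM47 and 3 control, grouped and numbered by the sample titles. The submitters' processing notes name HISAT2 2.0.5 and featureCounts 1.5.0-p3 as tools and hg38 as the build; no source used here gives the annotation, strand setting or read filters. Each deposited table gives raw counts and FPKM per gene, per the file headers. FPKM served only to compare levels between genes. Genes were kept by filterByExpr (minimum count 10) and tested with edgeR 4.0.16 (quasi-likelihood, TMM factors, group alone) in R 4.3.3, with Benjamini-Hochberg adjustment over all 14578 tested genes and a threshold of 0.05. The SE was derived from the fold change and its F statistic. Replicates differed beyond sampling noise, with a chi-square per degree of freedom of 10.74 to 144.83. Alternatives were RLE and upper-quartile factors, DESeq2 1.42.0, limma-voom (limma 3.58.1), other filters, the replicate number as a block, and leaving out single libraries. The tests were tried on simulated data. There edgeR called 26% of the 2-fold changes and 84% of the 4-fold changes, so a change of 2-fold or less can go uncalled. Of its 117 calls, 11 were on unchanged genes.

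The 34 genes, the lists and the tests were chosen with earlier results of these data known. Values in every library are given for genes with an unadjusted p under 0.05, groups that do not overlap or one of the 5 highest mean FPKM, and for MCOLN1, TFEB and TFE3. LIPA, LAMP2, SCARB2, GLA and NPC2 were added after their values were seen. Of each other list up to 4 genes with the smallest p are named. The result of 1 such gene is not reported here. Gene identifiers were matched to symbols through a reference table, with positions and overlaps taken from GENCODE release 29 on GRCh38.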

Additional observations from a re-analysis of the deposited data

How the results depend on the processing

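The median log2 fold change of the 33 tested genes was -0.17, between -0.18 and -0.16 under the other scalings, filters and tests and between -0.26 and -0.07 when a library was left out. The number of the 33 past the threshold was 0, and it was 2 by DESeq2 and 2 with no filter (NPC1 and CTSL in both), and 0 to 9 when a library was left out. For the other pathway genes it was 0, then 5, 4 and 0 to 29 in the same settings, and over all genes 32, then 644, 804 and 0 to 3117. The values of 9, 29 and 3117 were those without control replicate 3, and over all genes 0 passed without any one siRBM47 replicate, and leaving out control replicates 1 or 2 gave 19 or 12 calls. The cause of these shifts was not tested. Between 19 and 30 of the 33 genes were negative when a library was left out, against 24 with all. With all libraries, 23 were negative by DESeq2, with RLE factors and with a minimum count of 50. By limma-voom, with upper-quartile factors and with the replicate number as a block, 22 were negative. NPC1 stayed between -1.02 and -0.79 and CTSL between -0.87 and -0.66 over all alternatives, with adjusted p of 0.000912 to 0.36 and 0.00131 to 0.391. PPT1 stayed between 0.48 and 0.61, with adjusted p of 0.0087 to 0.547. Signs turned for genes near 0: MANBA was 0.06 by limma-voom, ATP6V1A was 0.02 by limma-voom, 0.01 with no filter and 0.00 with upper-quartile factors, and ATP6AP1 was 0.00 by DESeq2, with RLE factors and with a minimum count of 50, and 0.01 with no filter and with upper-quartile factors. With a library left out, signs turned within the ranges 0.00 to 0.70 (CTSK), -0.14 to 0.33 (SMPD1), 0.00 to 0.08 (ARSB), -0.10 to 0.76 (LAMP2), -0.01 to 0.48 (SCARB2), -0.10 to 0.26 (ATP6V0D1), -0.19 to 0.17 (ATP6AP1), -0.23 to 0.17 (GLB1), -0.21 to 0.39 (MANBA), -0.31 to 0.02 (LAMP1), -0.14 to 0.25 (ATP6V1A), -0.11 to 0.06 (NEU1) and -0.23 to 0.01 (TFE3).

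With the replicate number as a block, 0 of the 33 genes passed, the median was -0.18, MANBA was at 0.07 and ATP6V1A at 0.02. Deviations from the group means correlated at -0.036, 0.127 and 0.116 between libraries of the same number, so the numbers are not taken to pair the samples.

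Depth limits the low genes: CTSZ had 1 to 7 counts per library and was not tested. Counting of overlapping genes, the absent strand mark and 3 libraries per group limit the rest.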
